A study of Mus musculus with 6 samples.

Results

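The genes described here are 10 collagen chains of the basement membrane and of the vessel wall: the 6 collagen IV chains *Col4a1* to *Col4a6*, the collagen VIII chains *Col8a1* and *Col8a2*, and the multiplexins *Col15a1* and *Col18a1*. They were chosen by gene symbol, and each of the 10 has a row among the 41709 genes of the expression table. RNA-seq was done on 6 mouse tibialis anterior (TA) muscles, 3 electroporated with LrpprcWT, the wild-type protein, and 3 with LrpprcP27A, a variant labelled as resistant to dihydroxylation, in which alanine stands for proline at residue 27. Lrpprc is an RNA-binding protein known for its role in the stability of mitochondrial mRNAs. Both groups carried a Flag-tagged Lrpprc expressed from a CMV-based plasmid after hyaluronidase injection and electroporation of male C57BL/6 J mice, and the muscles were taken 14 days later. The study electroporated mice of 4 and of 27 months, and the age of the mice used for RNA-seq is not given in the sources used here. The plasmids went into contralateral muscles, and muscles of the 2 groups that carry the same number are treated as pairs below. The p-values of the main fit measure the spread between these muscles within a group, and those of fits by pair the spread of the differences within pairs. Both kinds of fit also draw on the spread of other genes, since there are only 3 muscles a group. No muscle without electroporated Lrpprc was sequenced, so the values compare the variant with the wild-type plasmid and not with unmanipulated muscle.

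Collagen IV is the network-forming collagen of every basement membrane, the thin sheet of matrix around each myofibre, capillary, fat cell and Schwann cell. Its chains assemble into trimers. The chains of *Col4a1* and *Col4a2* build the common trimer, that of *Col4a5* joins those of *Col4a3* and *Col4a4* in the kidney glomerulus, where variants cause Alport syndrome, and it joins that of *Col4a6* in smooth muscle and epidermis. Collagen VIII forms a short-chain network below endothelium and around smooth muscle. The multiplexins are collagens with interrupted triple helices and sugar chains that tie the basement membrane to the fibrils outside it, and each ends in an endostatin-like domain. Mice that lack *Col15a1* have a mild myopathy with defective capillaries.

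The values are in TPM, a length-corrected measure of abundance in which the genes of each library sum to a fixed total, so that it sets a gene against all other RNA of that muscle. TPM keeps no depth, so no counting error can be given, which matters most for the chains near or below 1 TPM. Transcripts of the mitochondrial genome took 40.8%, 45.2% and 35.99% of the TPM with LrpprcWT and 44.2% to 46.1% with LrpprcP27A, and 18603 to 19053 genes against 17774 to 18197 genes were above 0. *Lrpprc* itself, which counts plasmid and mouse transcripts together, had 35.1, 37.0 and 75.2 TPM with LrpprcWT and 26.9, 29.7 and 26.0 TPM with LrpprcP27A, a log2 fold change of -0.72 (limma, adjusted p = 0.0652). With the replicate block this passed the test (limma, adjusted p = 0.00243). LrpprcWT replicate 3 stood above the other 5 libraries for *Lrpprc*, and without it the change was -0.38 (adjusted p = 0.114 from limma). After median-of-ratios scaling the change of *Lrpprc* was -0.36 (adjusted p = 0.331 from limma). On the deposited scale the median log2 fold change over the 11611 genes tested was -0.32. Median-of-ratios scaling, which divides each library by the typical ratio of its genes, brought this median to -0.0047, and the changes of the chains are given below under both scalings. The LrpprcWT library of replicate 2 was the lowest LrpprcWT library for each of the 7 chains tested and lay nearest to the LrpprcP27A libraries.

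The 10 mRNAs spanned more than 3 orders of magnitude. In the LrpprcWT muscles *Col4a1* was highest with a mean of 254.3 TPM, followed by *Col4a2* (188.1), *Col15a1* (79.4), *Col18a1* (17.4), *Col8a1* (7.79), *Col4a5* (3.05) and *Col8a2* (1.92). *Col4a4* (0.553), *Col4a3* (0.425) and *Col4a6* (0.0948) had means below 1 TPM. In each library *Col4a1* was above *Col4a2*, *Col4a2* above *Col15a1* and *Col15a1* above *Col18a1*, while *Col4a5* and *Col8a2* had overlapping ranges. *Col4a1* and *Col4a2* together made up 79.9% ± 1.03 (SD, n = 3) of the summed TPM of the 10 chains with LrpprcWT and 83.8% ± 0.529 (SD, n = 3) with LrpprcP27A. The summed TPM of the 10 chains ranged from 302.7 to 740.0 with LrpprcWT and from 176.9 to 293.1 with LrpprcP27A.

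**Figure D1:**
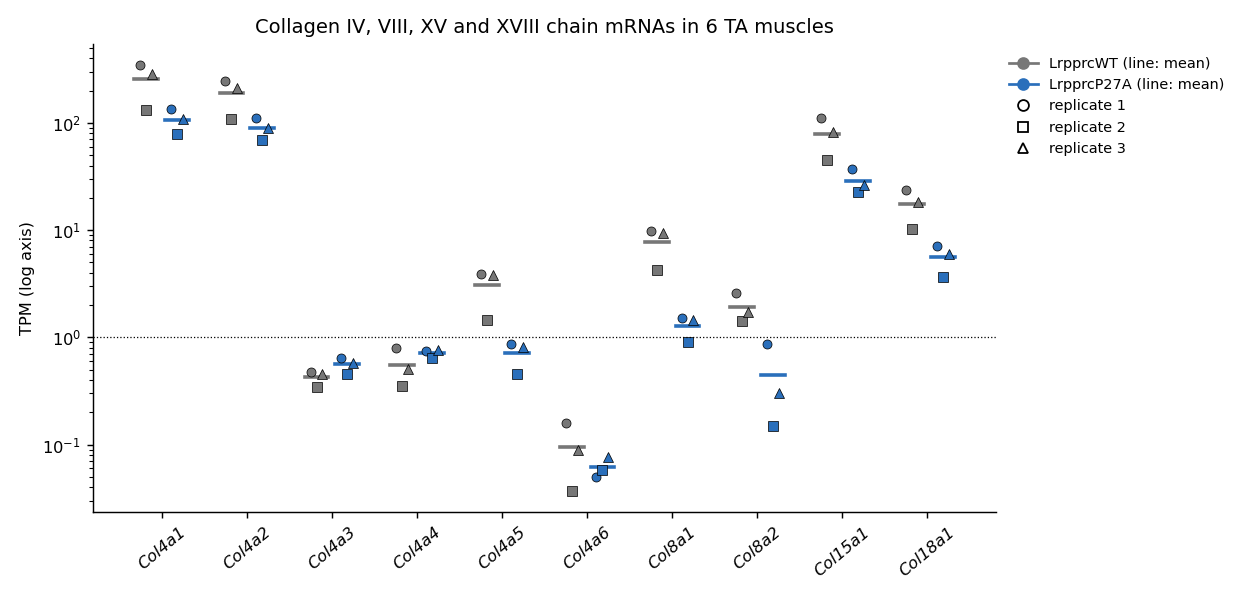
TPM of the 10 chains on a log axis, with 1 point per muscle, grey for LrpprcWT and blue for LrpprcP27A, the replicate number by shape and the mean as a line. The 7 chains with a mean of at least 1 TPM have lower means with LrpprcP27A, and the square of LrpprcWT, replicate 2, is the lowest grey point of each of them, while *Col4a3* and *Col4a4* have higher means with LrpprcP27A.

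The 7 chains with a mean of at least 1 TPM over the 6 libraries were tested, and all 7 fell with LrpprcP27A at an adjusted p under 0.05 (limma on log2(TPM + 1), Benjamini-Hochberg adjustment over 11611 genes), where 23.3% of all genes tested were called lower. No chain was called higher by limma, at an adjusted p or at an unadjusted p under 0.05, where 1.34% of all genes were called higher at an adjusted p under 0.05. The median log2 fold change of the 7 was -1.18, which is 0.86 below the median of all genes. *Col4a5* and *Col8a2* passed the filter only through their LrpprcWT values, since their LrpprcP27A means were 0.713 and 0.442 TPM. *Col4a4*, with a mean of 0.716 TPM with LrpprcP27A and 0.553 TPM with LrpprcWT, did not pass. The count of 7 and the median therefore depend on this filter. Without it the median over the 10 chains was -1.10, and 0 of the 10 were called lower at an adjusted p under 0.05. In that fit 8 of the 10 changes were below 0, as were 83.1% of all genes. With the replicate block, which compares muscles of the same number, all 7 were also called lower (adjusted p 2.94e-08 to 2.04e-05 from limma), beside 48.4% of all genes. With median-of-ratios scaling 5 of the 7 were called lower, beside 6.03% of all genes, and *Col4a1* and *Col4a2* were not (adjusted p = 0.105 and 0.110 from limma). With the block and this scaling together all 7 were called lower, beside 15.8% of all genes, with an adjusted p from limma between 0.00308 and 0.00917. The 7 log2 fold changes were below 0, and below the median of all genes, under each of the 3 other scalings tried. In 5 of the 7 chains the 3 LrpprcP27A values were all below the 3 LrpprcWT values, which 47.6% of all genes tested also showed. The 2 exceptions were *Col4a1* and *Col4a2*.

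**Figure D2:**
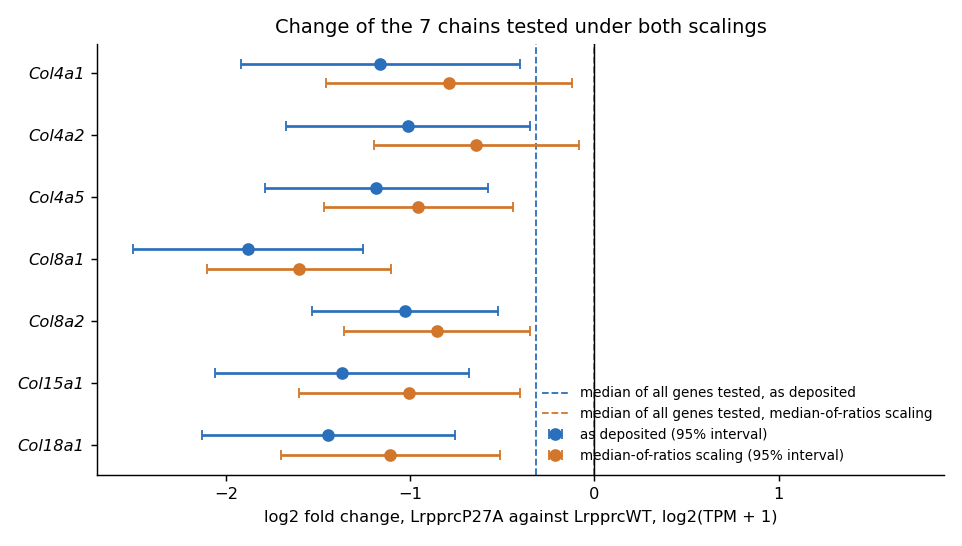
Log2 fold change of the 7 chains tested, LrpprcP27A against LrpprcWT, on log2(TPM + 1) from limma, with 95% intervals, as deposited (blue) and after median-of-ratios scaling (orange). Dashed lines mark the median of all genes tested under each scaling, -0.32 and -0.0047, and *Col8a1* lies farthest to the left under both.

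*Col4a1* and *Col4a2*, the chains of the common collagen IV trimer, fell together. *Col4a1* had 344.1, 131.4 and 287.5 TPM with LrpprcWT and 134.0, 79.2 and 107.6 TPM with LrpprcP27A. *Col4a2* had 243.7, 108.3 and 212.4 TPM with LrpprcWT and 110.4, 68.5 and 88.7 TPM with LrpprcP27A. For both genes the groups overlapped, because the LrpprcWT library of replicate 2 was slightly below the LrpprcP27A library of replicate 1, but within each of the 3 pairs the LrpprcP27A muscle was lower. The fold between the muscles of a pair was 2.57, 1.66 and 2.67 for *Col4a1* and 2.21, 1.58 and 2.40 for *Col4a2*. The log2 fold change was -1.16 for *Col4a1*, with a standard error of 0.33 and a 95% interval from -1.92 to -0.40 (limma, adjusted p = 0.0399). For *Col4a2* it was -1.01, with a standard error of 0.29 and a 95% interval from -1.67 to -0.35 (limma, adjusted p = 0.0398). Scaled by median of ratios they changed by -0.79 and -0.64 on the log2 scale, the smallest changes of the 7 under that scaling.

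The ratio of *Col4a1* to *Col4a2* within a library does not move with the scaling of libraries. It was 1.41, 1.21 and 1.35 with LrpprcWT and 1.21, 1.16 and 1.21 with LrpprcP27A. The ratio was lower with LrpprcP27A in 3 of 3 pairs, while the groups overlapped. The difference in mean log2 ratio was -0.15 (exact permutation test, two-sided, p = 0.3, and 0.3 adjusted over the 6 ratios tested). With 3 libraries a group this permutation test cannot give a p under 0.1, so it cannot decide whether a ratio changed. An exact sign-flip test over the 3 pairs gave p = 0.25, the smallest it can give. The genes lie head to head on chromosome 8 of GRCm39, *Col4a1* from 11248423 to 11362826 on the minus strand with 52 exons and *Col4a2* from 11362471 to 11499287 on the plus strand with 48 exons in the canonical transcripts of GENCODE. Their annotated start sites, 11362826 and 11362509, are such that the transcripts overlap, and 311 bases belong to exons of both. The library kit does not mark strand, so reads from this stretch cannot be told apart, in transcripts of 6615 and 6746 bases. *Col4a3* and *Col4a4* on chromosome 1 overlap in the same way over 104 exonic bases. On the X chromosome 1282 bases separate the start sites of *Col4a6* and *Col4a5*, which run in opposite directions.

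By the distance between centred log2(TPM + 1) values over the 6 libraries, the genes nearest to *Col4a1* among the 11610 others tested were *Myadm*, *Lgals9*, *Fbn1*, *Col4a2* and *Mcam*, in that order. *Myadm* encodes a membrane protein first found in myeloid cells, *Lgals9* a galectin, *Fbn1* the microfibril protein fibrillin 1, and *Mcam* an adhesion molecule of endothelial cells and pericytes. *Mcam*, for example, had 68.1, 23.3 and 53.3 TPM with LrpprcWT and 27.6, 16.5 and 22.9 TPM with LrpprcP27A, the same order of libraries as *Col4a1*. Among the chains described here, *Col15a1* ranked 33, *Col4a5* 47 and *Col18a1* 76 by this distance, whereas *Col8a2* ranked 654 and *Col8a1* 1356. The added 1 TPM narrows the changes of low chains, and the ranks were computed on this scale only. Between *Col4a5* and *Col4a1* the log2 difference in change was -0.85 without the added 1 TPM and -0.022 with it. Pearson's r between pairs of the 7 chains over the 6 libraries was 0.92 to 1.00 (21 pairs, median 0.98), values that include the difference between the groups.

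*Col4a5*, the chain on the X chromosome (140258354 to 140472231 of GRCm39), had 3.92, 1.45 and 3.79 TPM with LrpprcWT and 0.874, 0.455 and 0.810 TPM with LrpprcP27A. The groups did not overlap, and all 3 LrpprcP27A libraries were below 1 TPM. The mean was 4.28 times as high with LrpprcWT. Its change of -1.18 on the log2 scale, with a standard error of 0.27 (limma, adjusted p = 0.0242), understates this, since 1 TPM is added before the logarithm, and with 0.1 TPM added it was -1.88. Scaled by median of ratios *Col4a5* changed by -0.96 (limma, adjusted p = 0.0396). Relative to *Col4a1*, *Col4a5* was 0.0114, 0.0111 and 0.0132 with LrpprcWT and 0.00652, 0.00575 and 0.00753 with LrpprcP27A. Every LrpprcP27A library was thus below every LrpprcWT library in this ratio, by a mean log2 difference of -0.85 (p = 0.1 in an exact two-sided permutation test, the lowest possible with 3 libraries a group, and 0.2 adjusted over 6 ratios). With 1 TPM added to both genes the difference was -0.022, so it rests on values of *Col4a5* near or below 1 TPM. For this ratio, and for those of *Col8a1* and *Col18a1* to *Col4a1* below, the share of all genes that would separate was not computed. In TPM itself 47.6% of all genes tested separated.

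*Col4a3*, *Col4a4* and *Col4a6* did not reach a mean of 1 TPM and were not tested. *Col4a3* had 0.472, 0.343 and 0.460 TPM with LrpprcWT and 0.645, 0.460 and 0.577 TPM with LrpprcP27A. *Col4a4* had 0.794, 0.355 and 0.509 TPM with LrpprcWT and 0.747, 0.644 and 0.757 TPM with LrpprcP27A. The LrpprcP27A muscle was higher in 3 of 3 pairs for *Col4a3* and in 2 of 3 for *Col4a4*, and for both genes the groups overlapped. In the fit without a filter on low values their log2 fold changes were 0.13 and 0.15 (adjusted p = 0.260 and 0.386 from limma). Together these 2 chains made up 0.192% to 0.289% of the collagen IV TPM with LrpprcWT and 0.564% to 0.739% with LrpprcP27A. *Col4a6* had 0.158, 0.0373 and 0.0890 TPM with LrpprcWT and 0.0504, 0.0575 and 0.0765 TPM with LrpprcP27A, and these ranges overlapped. At these levels the unknown depth leaves the precision of a single library unknown.

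*Col8a1* had the largest fall of the 7. It had 9.72, 4.22 and 9.42 TPM with LrpprcWT and 1.4996, 0.911 and 1.44 TPM with LrpprcP27A. The lowest LrpprcWT library was well above the highest LrpprcP27A library, and the LrpprcWT muscle was 6.48, 4.63 and 6.53 times as high in the 3 pairs. The log2 fold change of *Col8a1* was -1.88, with a standard error of 0.27 and a 95% interval from -2.50 to -1.26 (limma, adjusted p = 0.0116), and -1.60 after median-of-ratios scaling (adjusted p = 0.0220 from limma). Of all genes tested, 0.482% had a log2 fold change as low or lower. *Col8a2*, the partner chain, had 2.62, 1.43 and 1.73 TPM with LrpprcWT and 0.872, 0.148 and 0.306 TPM with LrpprcP27A. Its groups did not overlap either, with a change of -1.03 on the log2 scale and a standard error of 0.22 (limma, adjusted p = 0.0222), or -2.09 with 0.1 TPM added. Scaled by median of ratios *Col8a2* changed by -0.85 (limma, adjusted p = 0.0475). Its mean over the 6 libraries, 1.18 TPM, was the lowest of the chains tested and just above the filter.

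*Col8a1* fell further than *Col4a1* in each of the 3 pairs. The ratio of *Col8a1* to *Col4a1* was 0.0283, 0.0321 and 0.0328 with LrpprcWT and 0.0112, 0.0115 and 0.0134 with LrpprcP27A. The LrpprcP27A values lay below the LrpprcWT values by 2.58-fold, a mean log2 difference of -1.37, larger than the standard deviations of 0.12 and 0.14 in the groups (p = 0.1 in an exact two-sided permutation test, the lowest possible with 3 libraries a group, and 0.2 adjusted over 6 ratios). With 1 TPM added to both genes it was -0.72. The LrpprcWT library of replicate 2, which was low for the collagen IV chains, had about the same ratio as the other LrpprcWT libraries. The share of *Col8a1* in the summed TPM of the 10 chains was 1.31% to 1.53% with LrpprcWT and 0.512% to 0.620% with LrpprcP27A.

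**Figure D3:**
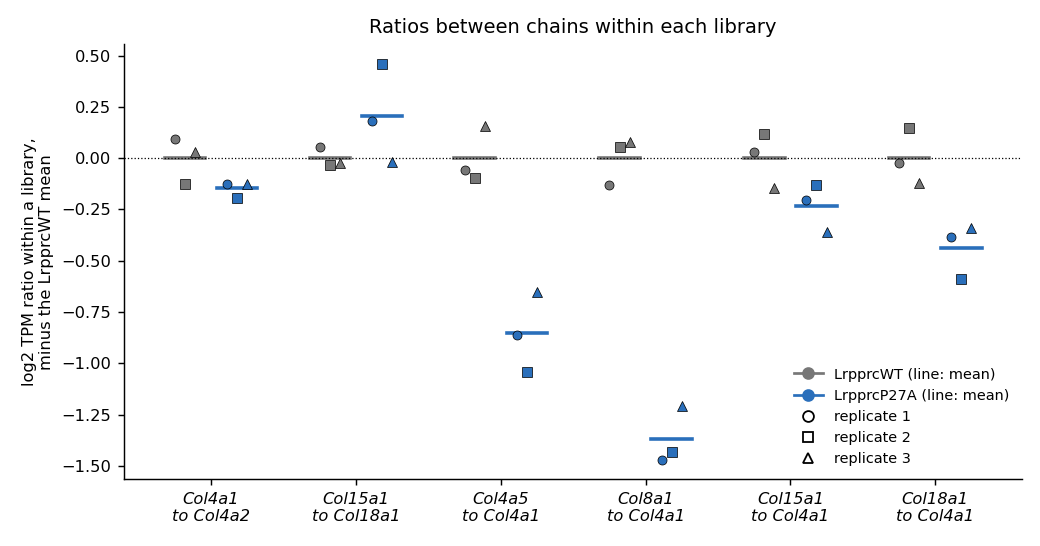
Log2 ratio of TPM between 2 chains in the same library, minus the mean of the LrpprcWT libraries, for the 6 ratios tested. Grey points are LrpprcWT, blue points LrpprcP27A, shapes mark the replicate and lines the mean. The blue points of *Col4a5*, *Col8a1* and *Col18a1* to *Col4a1* lie below the grey ones, by means of 0.85, 1.37 and 0.44, and those of the other 3 ratios overlap the grey range. The share of all genes that would separate in such a ratio was not computed.

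The multiplexins fell as well. *Col15a1* had 110.9, 45.0 and 82.2 TPM with LrpprcWT and 36.7, 22.9 and 26.5 TPM with LrpprcP27A. *Col18a1* had 23.6, 10.2 and 18.4 TPM with LrpprcWT and 7.15, 3.67 and 5.92 TPM with LrpprcP27A. Neither gene's groups overlapped, and the LrpprcWT muscle was 3.02, 1.97 and 3.11 times as high for *Col15a1* and 3.30, 2.77 and 3.11 times as high for *Col18a1* in the 3 pairs. *Col18a1* changed by -1.45 on the log2 scale, with a standard error of 0.30 and a 95% interval from -2.13 to -0.76 (limma, adjusted p = 0.0206). *Col15a1* changed by -1.37, with a standard error of 0.30 and a 95% interval from -2.06 to -0.68 (limma, adjusted p = 0.0236). Scaled by median of ratios the changes were -1.11 for *Col18a1* and -1.004 for *Col15a1* (limma, adjusted p = 0.0400 and 0.0487). *Col15a1* is one of the genes named by the study and is therefore no independent choice. Relative to *Col4a1*, *Col18a1* was lower in every LrpprcP27A library than in every LrpprcWT library, with a mean log2 difference of -0.44 (p = 0.1 in an exact two-sided permutation test, the lowest possible with 3 libraries a group, and 0.2 adjusted over 6 ratios). For *Col15a1* against *Col4a1* the difference was -0.23 and the groups overlapped (exact permutation test, two-sided, p = 0.2, and 0.24 adjusted over 6 ratios).

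The ratio of *Col15a1* to *Col18a1* was 4.71, 4.43 and 4.46 with LrpprcWT and 5.14, 6.23 and 4.47 with LrpprcP27A, a mean log2 difference of 0.21 (exact permutation test, two-sided, p = 0.2, and 0.24 adjusted over 6 ratios). Without the LrpprcP27A library of replicate 2 it was 0.080. *Col15a1* lies on chromosome 4 of GRCm39 (47207582 to 47313179, plus strand, 40 exons) and *Col18a1* on chromosome 10 (76888012 to 77002390, minus strand, 41 exons). The span of *Col18a1*, which also has an upstream start for a longer form, overlaps that of *Slc19a1*, a folate carrier. The table gives 1 value per gene and does not separate the forms.

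The 250 bases before the GENCODE canonical start site of each of the 10 chains were searched, read from GRCm39 in the direction of each gene. The part outside annotated exons is shown for the multiplexins and *Col8a1*, which were picked for their falls. In these genes every LrpprcP27A value was below every LrpprcWT value, as in 47.6% of all genes tested. Whether these sequences bear on the falls was not tested. For *Col18a1* the last 34 bases of the window belong to an exon of another transcript and are left out. Capitals mark matches on either strand to the CCAAT box (CCAAT), the GC box (GGGCGG), the TATA box (TATAAA), an AP-1 site (TGANTCA) and an ETS site (CCGGAAG), which do not overlap each other here.
*Col15a1*, chr4:47207332-47207581, plus strand: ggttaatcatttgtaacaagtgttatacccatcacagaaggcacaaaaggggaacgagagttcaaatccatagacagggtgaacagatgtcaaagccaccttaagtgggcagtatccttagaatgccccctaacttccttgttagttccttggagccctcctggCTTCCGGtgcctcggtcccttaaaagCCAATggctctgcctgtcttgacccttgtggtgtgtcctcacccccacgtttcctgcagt
*Col18a1*, chr10:76949815-76950030, minus strand: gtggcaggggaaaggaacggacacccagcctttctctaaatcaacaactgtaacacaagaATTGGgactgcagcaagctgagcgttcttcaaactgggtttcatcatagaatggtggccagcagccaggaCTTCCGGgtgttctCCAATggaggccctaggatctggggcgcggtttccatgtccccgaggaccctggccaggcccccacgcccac
*Col8a1*, chr16:57575101-57575350, minus strand: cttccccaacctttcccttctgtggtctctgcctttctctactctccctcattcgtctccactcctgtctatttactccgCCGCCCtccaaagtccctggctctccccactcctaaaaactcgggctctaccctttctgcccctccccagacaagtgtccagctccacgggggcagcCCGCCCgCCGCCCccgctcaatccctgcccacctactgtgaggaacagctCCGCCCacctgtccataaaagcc

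The *Col15a1* and *Col18a1* stretches each hold the ETS site letters once, and CCAAT once and 2 times. Of the same windows before 21757 protein-coding genes, 6.89% hold the ETS letters and 36.5% hold CCAAT. The *Col8a1* stretch holds the GC box letters 4 times and neither of the former, and *Col8a2* holds the GC box 2 times, where 36.3% of the windows hold it at least once. Of the 10 chains, 2 have the ETS letters, 5 have CCAAT and 4 have the GC box in this window. No chain has the TATA box letters (11.9% of all windows) or the AP-1 letters (6.18%). For *Col4a1*, *Col4a3* and *Col4a4* the whole window lies in annotated exons, and for *Col4a2* 38 bases of it do.

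Letters at the other end of the mRNA were searched as well. miR-29 is a microRNA family known to repress many collagen mRNAs through their 3′ UTRs. Its 3 members share a seed (bases 2 to 8, in capitals), as the RefSeq sequences (GRCm38.p6) show.
mmu-miR-29a-3p: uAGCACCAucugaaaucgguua
mmu-miR-29b-3p: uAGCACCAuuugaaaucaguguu
mmu-miR-29c-3p: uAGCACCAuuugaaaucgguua

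The match to this seed, TGGTGCT, is in the 3′ UTR of 8 of the 9 chains for which the canonical GENCODE transcript gives one, against 14.2% of 20827 protein-coding 3′ UTRs. *Col8a2* has none, and *Col18a1* was not counted. The UTRs of the 9 are 889 to 4708 bases long, and the median over all genes is 1084. *Col4a3* has 4 matches, *Col4a5* 3, *Col4a2* and *Col4a4* 2 each, and *Col4a1*, *Col4a6*, *Col8a1* and *Col15a1* 1 each. *Col4a1*, *Col4a2*, *Col4a5*, *Col8a1* and *Col15a1* have matches and fell, and *Col8a2*, which has none, fell as well. *Col4a3* and *Col4a4* were not tested and had higher means with LrpprcP27A, and *Col4a6*, also not tested, had overlapping groups. Sites of *Col4a1*, *Col4a5*, *Col8a1*, *Col15a1* and *Col4a3* are shown with the seed match in capitals, 1 per gene. Those of *Col4a2*, *Col4a4* and *Col4a6* and the others of *Col4a3* and *Col4a5* are not shown. Among these, the 2 of *Col4a2*, which fell, have t after the match, and that of *Col4a6* has a.
*Col4a1*: gccaccgtcacaacaTGGTGCTa
*Col4a5*: cactgctcccaccaaTGGTGCTa
*Col8a1*: ctgtatattctaccaTGGTGCTa
*Col15a1*: atccaatccacatatTGGTGCTa
*Col4a3*: atttcactactagacTGGTGCTg

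The level of mature miR-29 was not measured, and a seed match is a description of the sequence.

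The genes that work with these collagens were described from lists of symbols, each beside the median log2 fold change of -0.32 and the 23.3% called lower over all genes. Of the 16 basement membrane partners tested out of 25 listed, 11 were called lower and none higher, with a median log2 fold change of -0.87. *Sparc*, a collagen-binding matricellular protein, fell by 1.36 on the log2 scale (adjusted p = 0.0199 from limma), and the nidogens *Nid1* and *Nid2*, which link laminin to collagen IV, had log2 fold changes of -1.17 and -1.18, both called lower. *Lamb2*, the laminin chain of synapses and the highest of the list after *Sparc*, had a log2 fold change of -0.27 (adjusted p = 0.0765 from limma). *Lama2*, the laminin chain of the myofibre sheath, had -0.74 and *Lama4*, that of vessels, -0.99, both called lower. *Hspg2*, which encodes perlecan, had -0.63 and was not called. *Nid1*, *Nid2*, *Lama2*, *Lama4* and *Hspg2* were chosen after their values were seen.

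Of the 24 genes tested for folding, modifying and crosslinking of collagen, 15 were called lower and none higher, with a median log2 fold change of -0.74. *Serpinh1*, the collagen chaperone, fell by 1.25 on the log2 scale (adjusted p = 0.0262 from limma) and *P4hb*, a subunit of prolyl hydroxylase, by 0.65 (adjusted p = 0.0256 from limma). *Pxdn*, which encodes peroxidasin, the enzyme that links collagen IV trimers to each other and was also chosen after its value was seen, had a log2 fold change of -1.24 and was called lower. Of 16 receptor genes tested, 10 were called lower and none higher, with a median of -0.63. *Itgb1*, the shared subunit of collagen-binding integrins, had 202.0, 128.3 and 191.6 TPM with LrpprcWT and 109.8, 93.6 and 109.0 TPM with LrpprcP27A, a log2 fold change of -0.71 (adjusted p = 0.0271 from limma). *Gpc1*, a cell-surface proteoglycan that binds endostatin, had -0.27 (adjusted p = 0.110 from limma).

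Of 19 matrix-degrading enzymes and inhibitors tested, 13 were called lower and none higher, with a median log2 fold change of -1.01. *Ctsb*, a lysosomal protease, fell by 0.51 and *Timp2*, an inhibitor of metalloproteinases, by 0.70 on the log2 scale (adjusted p = 0.0312 and 0.0298 from limma). Of 20 other collagen chains tested, 15 were called lower and none higher, with a median of -1.35, below the -1.18 of the 7 chains described here. *Col3a1* and *Col1a1*, the chains of the main fibrils, had the highest TPM of that list and log2 fold changes of -2.14 and -2.22 (adjusted p = 0.0116 and 0.0124 from limma). With median-of-ratios scaling, where 6.03% of all genes were called lower, the numbers called lower were 4 of the partners, 8 of the modifying genes, 1 of the receptors, 7 of the enzymes and inhibitors and 11 of the other collagens, and 1 modifying gene, *Mia3*, named after its value was seen, was called higher. The medians were then -0.51, -0.42, -0.31, -0.70 and -0.98 in the same order. The receptors' share was near that over all genes. With the replicate block, which called 48.4% of all genes lower, the numbers called lower were 13 of 16, 18 of 24, 14 of 16, 16 of 19 and 17 of 20, and 1 modifying gene and 1 enzyme or inhibitor were called higher.

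**Figure D4:**
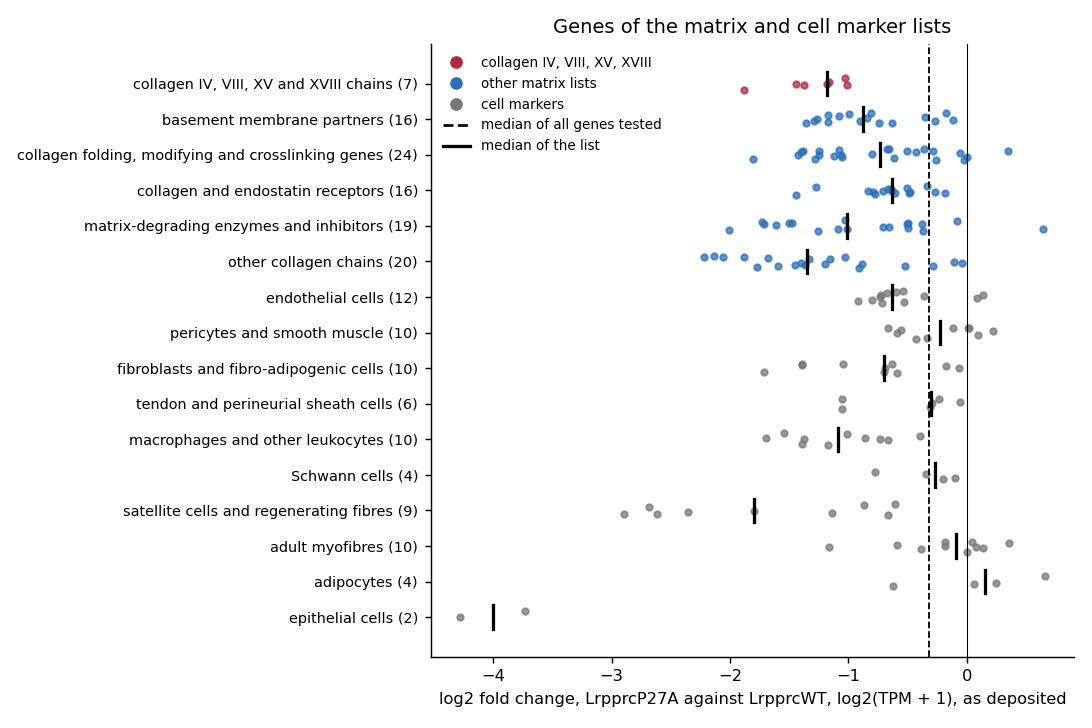
Log2 fold change, LrpprcP27A against LrpprcWT, on log2(TPM + 1) as deposited, of the tested genes in each list, with the number tested in brackets. Each point is a gene, the short bar is the median of the list and the dashed line the median of all genes tested, -0.32. The chains described here (red) have a median of -1.18, between those of the satellite cell and macrophage lists (-1.79 and -1.09).

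Markers of the cell types that make or carry basement membrane were read against the 23.3% of all genes called lower, and their part in the changes of the collagens was not tested. In whole muscle, fewer cells of a type and less RNA per cell cannot be told apart. Of 12 endothelial markers 4 were called lower, with a summed level of 266.3 to 477.5 TPM with LrpprcWT and 201.2 to 271.5 TPM with LrpprcP27A. Of 10 fibroblast markers 6 were called lower (600.1 to 806.1 against 393.6 to 580.2 TPM), and of 10 pericyte and smooth muscle markers 2 (367.2 to 504.3 against 301.5 to 407.5 TPM), the latter near the share over all genes. *Gsn*, the highest of the fibroblast markers, had a mean of 290.1 TPM with LrpprcWT and 281.0 TPM with LrpprcP27A. A large part of the fibroblast sum thus hardly changed, while the median log2 fold change of the fibroblast markers was -0.70. Of 10 macrophage and leukocyte markers tested 9 were called lower (328.0 to 631.5 against 111.8 to 228.6 TPM). Of 9 markers of satellite cells and regenerating fibres 8 were called lower (94.2 to 184.2 against 28.9 to 48.2 TPM), with a median log2 fold change of -1.79. Of 10 adult myofibre markers 2 were called lower, also near the share over all genes, and *Acta1*, the fibre's actin, had a log2 fold change of -0.18 (adjusted p = 0.197 from limma).

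The remaining marker lists were small. Of the tested markers, 1 of 6 for tendon and nerve sheath (99.7 to 175.5 against 46.3 to 124.9 TPM), 1 of 4 for Schwann cells (54.6 to 69.2 against 31.0 to 61.1 TPM) and 1 of 4 for adipocytes (94.2 to 117.5 against 64.7 to 92.1 TPM) were called lower, shares near the 23.3% of all genes. The adipocyte sum was mostly *Fabp4*, the marker called lower, with means of 89.1 TPM with LrpprcWT and 56.8 TPM with LrpprcP27A. Only 1 of the 4 adipocyte changes was below 0 as deposited, and their median log2 fold change was 0.16. Among the epithelial markers only the keratins *Krt8* and *Krt18*, which other cells than epithelia can also express, were tested and both were called lower (46.2 to 87.4 against 0.522 to 3.91 TPM for the list). *Krt5* was at 0 in all 6 libraries and *Epcam* and *Cdh1* had means below 1 TPM. *Krt8*, *Krt5*, *Epcam* and *Cdh1* were chosen after their values were seen. No marker in any of these lists was called higher on the deposited scale without the replicate block. With the block, which called 48.4% of all genes lower, 10 of the endothelial, 8 of the fibroblast, 5 of the pericyte and smooth muscle, 9 of the macrophage and 9 of the satellite cell markers were called lower, and 1 adult myofibre and 1 adipocyte marker were called higher. After median-of-ratios scaling, where 6.03% of all genes were called lower, 3 of the fibroblast, 3 of the macrophage, 7 of the satellite cell and 2 of the epithelial markers were called lower by limma and none of the other lists. The median log2 fold change was then -0.28 for the endothelial, -0.36 for the fibroblast and -1.60 for the satellite cell markers, and it was above 0 for the pericyte and smooth muscle markers (0.14), the adult myofibre markers (0.29) and the adipocyte markers (0.34).

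Set against the summed endothelial markers in the same library, *Col8a1* was 0.0204, 0.0159 and 0.0252 with LrpprcWT and 0.00552, 0.00453 and 0.00699 with LrpprcP27A. The same ratio for *Col4a1* was 0.721, 0.493 and 0.771 with LrpprcWT and 0.494, 0.394 and 0.522 with LrpprcP27A, and these groups overlapped. For *Col4a5*, *Col8a1*, *Col8a2*, *Col15a1* and *Col18a1* every LrpprcP27A library was below every LrpprcWT library in the ratio to the endothelial, to the fibroblast and to the pericyte and smooth muscle sums. For *Col4a1* and *Col4a2* the groups overlapped in each of these ratios. The share of all genes that would separate in such ratios was not computed, and 47.6% of all genes tested separated in TPM itself. The LrpprcP27A values of *Col4a5* and *Col8a2* were all below 1 TPM. These ratios were not tested. The mean log2 difference in the ratio to the endothelial sum was -1.85 for *Col8a1*, -0.71 for *Col15a1* and -0.48 for *Col4a1*.

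The calls of the 7 chains depended on single libraries, as did those of all genes. Without the LrpprcWT library of replicate 3 none was called by limma at an adjusted p under 0.05 (7 at an unadjusted p under 0.05), where 0.122% of all genes were called lower, and *Col4a1* had a log2 fold change of -1.02 (adjusted p = 0.159 from limma). Without the LrpprcWT library of replicate 1 *Col8a2* no longer reached a mean of 1 TPM. Of the 6 chains then tested only *Col8a1* was called, beside 2.33% of all genes. Without the LrpprcP27A library of replicate 2 or of replicate 3 only *Col8a1* and *Col18a1* were called, beside 4.44% and 3.8% of all genes. Without the LrpprcWT library of replicate 2 all 7 were called, where 59.5% of all genes were called lower too, with log2 fold changes of -1.58 for *Col4a1*, -1.37 for *Col4a2* and -2.22 for *Col8a1* (adjusted p = 0.00361, 0.00366 and 0.00242 from limma). Without the LrpprcP27A library of replicate 1 all 7 were called too, beside 14.6% of all genes. The log2 fold changes of the 7 chains were below 0 in every one of these fits that tested them, as were those of 85.3% to 89.2% of all genes.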

How the data were processed

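RNA-seq values of 6 TA muscles, 3 per group by the labels, were used. The TPM values deposited by the authors, 1 per gene and library, were made in CLC Genomics Workbench on GRCm39 from filtered paired-end reads, and were used with no other normalization between libraries. Depth per sample is unknown, since TPM keeps none. The annotation used for counting is not given in the sources used here.

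Genes averaging 1 TPM or more over the libraries (11611) were taken to log2(TPM + 1), and limma 3.58.1 under R 4.3.3 tested LrpprcP27A against LrpprcWT (linear model, empirical Bayes with a trend, Benjamini-Hochberg adjustment over all genes tested). The study's Kruskal-Wallis test was an alternative. Ratios between chains were compared by an exact permutation test over libraries (SciPy 1.17.1). The fit was tested on simulated data.

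Both groups share the library numbers, and the study placed the 2 plasmids in contralateral muscles. Across genes, the departures of same-numbered muscles from their group means had correlations of 0.36, 0.53 and 0.36, so fits with the replicate number as a block were added. That a number stands for a mouse is inferred and not stated.

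The genes named are the 10 members, *Lrpprc*, the 2 genes of highest mean TPM in each matrix list, the highest gene of a marker list where named, and the 5 genes nearest to *Col4a1*, and others are said to be chosen after their values were seen. The members, lists and tests were chosen with earlier results of these data known. Positions, exons and UTRs are from GENCODE vM39, and bases from GRCm39. Alternatives were the pseudocount, the filter, the trend, the test, the block, 3 scalings and each library left out. Protein sequences were not used here.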

Additional observations from a re-analysis of the deposited data

How the results depend on the processing

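Of the 7 chains tested, 7 were called lower at an adjusted p under 0.05 from limma, beside 2705 of 11611 genes. Without a filter on low values 0 of 10 were (7 before adjustment), beside 42 of 21450 genes. Requiring 5 TPM on average, which leaves 4 of the chains, kept all 4, beside 1560 of 7082 genes. The Kruskal-Wallis test called 0 chains and 0 genes in all (5 chains and 5530 genes at an unadjusted p under 0.05), because its smallest p with 3 against 3 is 0.0495. Rescaling without mitochondrial and ribosomal RNA gave 2 (*Col4a5* and *Col8a1*), beside 661 of 11587 genes, and quantile normalization 2 (*Col8a1* and *Col18a1*), beside 518 of 11611 genes. With each library left out in turn 0 to 7 were called, beside 14 to 6918 genes. The replicate block, a pseudocount of 0.1 and limma without the trend gave 7, median-of-ratios scaling 5, and that scaling without the LrpprcWT library of replicate 2, chosen after seeing the data, 7, beside 1335 of 11622 genes. No setting called a chain higher. On the deposited scale the replicate block changed no call of a chain. The cause of the lost calls was not tested.

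The median log2 fold change of the chains was -1.18, from -1.05 to -1.58 with each library left out and from -0.92 (quantile normalization) to -1.59 (pseudocount 0.1) under the other settings. The ratios between chains kept their direction in each setting tried, and an exact sign-flip test of the 3 pairs gave p = 0.25 for each ratio, the smallest it can give. With 1 TPM added, the log2 difference was 0.074 for *Col15a1* to *Col18a1*. The unknown depth limits *Col4a3*, *Col4a4*, *Col4a6*, *Col4a5* and *Col8a2* most.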
